A study of Mus musculus with 12 samples.

Results

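The genes described here encode the enzymes and regulators that make sterols and fatty acids, measured in mouse erythroleukemia (MEL) cells with and without knockdown of the histone H3 lysine 9 methyltransferase G9a. The list names 31 genes: 18 enzymes of sterol synthesis, 6 genes of the SREBP pathway and 7 enzymes of fatty acid synthesis. Each gene was represented by the probe set annotated to it alone with the highest mean over the 6 arrays. Acat2 had no probe set annotated to it alone and its level is not described, which leaves 30 of the 18193 genes with such a probe set. All 30 passed the filter on dim probe sets (a log2 value over 4 in 3 or more of the arrays), as did 9025 genes in all. MEL cells are leukemic red cell precursors that mature further in dimethyl sulfoxide (DMSO), and the labels record 2% DMSO for 4 days. The groups were 3 arrays labelled wild type and 3 labelled G9a knockdown, numbered 1 to 3 in each. The labels give doxycycline at 5 µg/ml as the inducer of the knockdown, in text shared by both groups, and do not say whether wild type cells received it. They name neither the knockdown construct nor a clone. Whether arrays with different numbers are separate cultures is not stated, and the p-values therefore cover variation among these 6 arrays, some of which may be technical.

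Cholesterol is built from acetyl-CoA through mevalonate, isoprenoid diphosphates, squalene and lanosterol, and the same acetyl-CoA feeds fatty acid synthesis. Both routes are controlled by the SREBP transcription factors, which are held in the endoplasmic reticulum by SCAP and the INSIG proteins when sterols are plentiful and are cut free when sterols are scarce. The red cell membrane is rich in cholesterol, and erythroid precursors, which divide rapidly, need new lipid for each division. SREBPs bind sterol response elements near the start of their target genes, usually beside sites for the factors NF-Y and Sp1.

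The promoters of 4 members are shown because 3 of them, Hmgcs1, Lss and Nsdhl, had the lowest p-values among the representative probe sets and Insig1, a classic SREBP target, did not share their direction. Each sequence is the 250 bases before the gene's start in RefSeq (build GRCm38.p6), 5′ to 3′ on the gene's strand. Capitals mark matches on either strand to 4 motifs. TCACNCCAC is a sterol response element. The NF-Y box is CCAAT. The GC box, read by Sp1, is GGGCGG. The E-box is CACGTG, which reads the same on both strands. None of the 4 contains another.

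Hmgcs1, chr13:119690101-119690350, plus strand: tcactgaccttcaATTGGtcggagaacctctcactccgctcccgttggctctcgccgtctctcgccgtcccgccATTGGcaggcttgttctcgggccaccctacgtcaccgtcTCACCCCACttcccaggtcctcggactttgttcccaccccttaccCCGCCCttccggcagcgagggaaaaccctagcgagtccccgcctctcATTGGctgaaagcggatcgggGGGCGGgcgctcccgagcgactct
Lss, chr10:76531355-76531604, plus strand: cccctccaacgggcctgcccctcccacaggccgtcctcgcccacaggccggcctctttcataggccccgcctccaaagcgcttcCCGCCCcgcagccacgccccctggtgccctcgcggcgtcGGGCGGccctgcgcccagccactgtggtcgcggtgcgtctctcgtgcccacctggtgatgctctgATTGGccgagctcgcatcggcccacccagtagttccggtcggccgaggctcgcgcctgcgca
Nsdhl, chrX:72918271-72918520, plus strand: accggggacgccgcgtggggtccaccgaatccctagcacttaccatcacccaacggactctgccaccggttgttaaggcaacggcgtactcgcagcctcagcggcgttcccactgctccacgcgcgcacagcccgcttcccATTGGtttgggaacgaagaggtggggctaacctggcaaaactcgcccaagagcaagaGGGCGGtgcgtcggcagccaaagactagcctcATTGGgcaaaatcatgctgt
Insig1, chr5:28071162-28071411, plus strand: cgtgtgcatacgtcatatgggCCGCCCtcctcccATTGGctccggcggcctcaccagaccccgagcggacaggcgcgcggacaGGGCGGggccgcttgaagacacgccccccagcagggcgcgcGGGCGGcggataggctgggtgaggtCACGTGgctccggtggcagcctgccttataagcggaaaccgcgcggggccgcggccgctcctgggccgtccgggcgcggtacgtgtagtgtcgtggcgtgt

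In Hmgcs1 the sterol response element spelled TCACCCCAC lay at bases -137 to -129 from the start, between NF-Y boxes at -176 to -172 and -45 to -41. Lss held 1 NF-Y box, at -62 to -58, and Nsdhl held 2, at -109 to -105 and -20 to -16. Insig1 held an E-box at -101 to -96 and an NF-Y box at -216 to -212. Of the 31 genes, 25 were in the promoter table (Fdft1, Fdps, Scd1, Scd2, Sqle and Stard4 were not). The 25 include Acat2, which is not among the tested genes set beside them and held a GC box only. The NF-Y box was found on either strand in 20 of the 25 (80%), against 41.5% of the 7477 genes in the promoter table that were also tested on the arrays. The GC box was found in 21 of 25 (84%, against 67.1%) and the E-box in 5 (20%, against 10.8%). The sterol response element was found in Hmgcs1 alone (1 of 25, against 1.2%), and a longer form that contains it in 0 of 25 (against 0.0535%). Orientation was counted over all promoters of a gene, 33 for the 25 members and 9579 for the tested genes. The NF-Y boxes of the members read ATTGG on the gene's strand in 28 of 40 cases (70.0%), against 49.5% in the tested genes. A gene with several promoters could count the same box more than once. All 7 NF-Y boxes in the printed sequences read ATTGG. A match describes letters in this window only.

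The labelled knockdown and cell type were checked on the same arrays. Values are GCRMA log2 values, in which a difference of 1 is a 2-fold change. Differences are knockdown minus wild type, and p-values come from limma fitted to all 17028 tested probe sets with the replicate number as a block. Ehmt2, which encodes G9a, read 9.92, 10.03 and 10.23 in wild type and 6.67, 7.33 and 7.58 in the knockdown at probe set 1460692_at (adjusted p = 0.0316 in limma), and its other probe set also passed (adjusted p = 0.0278). Without the block the adjusted p-values in limma were 0.0719 and 0.0216, and in MAS5 they were 0.295 and 0.419, with differences of -2.46 and -2.71. In GCRMA with the block, these were the 2 probe sets called among all 17028. Of 12 erythroid markers, 8 had a probe set of their own and 7 were above the filter, among them Gata1, Klf1, Epor, Alas2 and Tfrc, while Hba-a1 lay below it at its probe set. Their summed linear level was 53400 to 58200 in wild type and 53400 to 59800 in the knockdown. Klf1, an erythroid transcription factor, was higher in all 3 pairs, by 0.40 (limma unadjusted p = 0.00924, adjusted p = 0.241). The transferrin receptor gene Tfrc differed by -0.23 (limma adjusted p = 0.404) with the groups apart. Their part in the results on lipid genes was not tested. Of the adipocyte or hepatocyte, lymphoid, mast cell and fibroblast markers 0 were above the filter (summed levels 46.2 to 51.3 and 45.7 to 47.1, 25.7 to 29.6 and 25.4 to 26.5, 19.5 to 20.5 and 19.4 to 19.8, and 35.1 to 39.3 and 34.9 to 35.9 in wild type and knockdown). Of 5 macrophage markers 1 was above it, Csf1r, and the list summed to 99.8 to 133 and 101 to 116. In bulk RNA, fewer cells of a kind and less RNA per cell cannot be told apart.

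None of the sterol and fatty acid synthesis genes passed the threshold. Of 30 representative probe sets, 0 had a limma adjusted p under 0.05, against 0.0111% of all genes and 0.0117% of all tested probe sets, and the smallest adjusted p was 0.313. At an unadjusted p under 0.05 there were 3 lower in the knockdown (10.0%, against 7.63% of all genes) and 0 higher (against 6.56%). The difference was negative in 21 of 30 (70.0%, against 51.1%), with a median of -0.12 against -0.01 over all genes. In 9 of 30 the knockdown array was lower than the wild type array of the same number in all 3 pairs (30%, against 21.7%), and in 1 it was higher in all 3 (3.33%, against 18.7%). The groups did not overlap, with the knockdown lower, in 2 of 30 (6.67%, against 7.34%). The shares at p under 0.05 and without overlap therefore lay near those of all genes. The 95% interval of the difference excluded a 2-fold change in either direction in 28 of 30 (93.3%, against 96.9%), and it reached past it in Elovl6 and Scd1. The list was chosen with results of these arrays known, so these counts are a description of it.

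**Figure D1:**
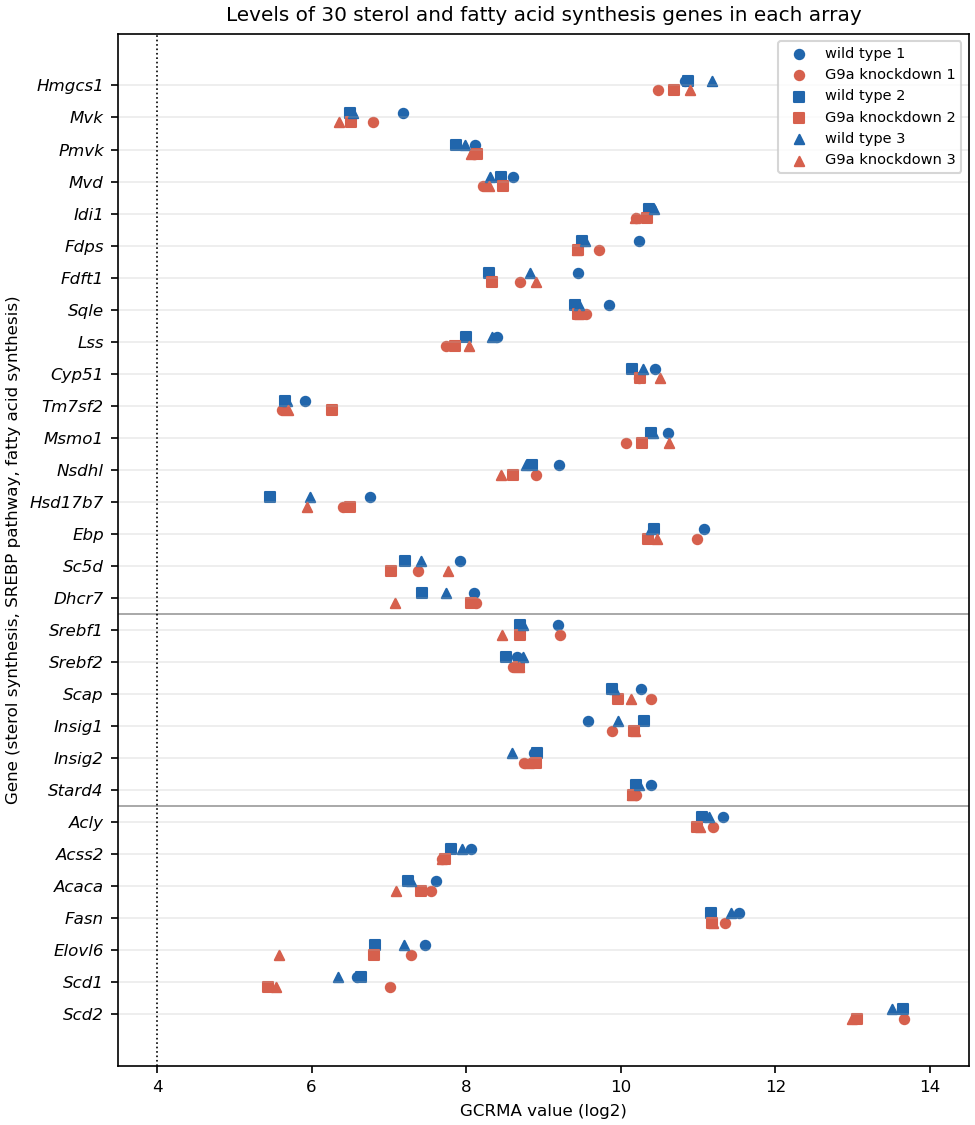
GCRMA log2 value of the representative probe set of each of 30 genes (rows, grouped by horizontal lines into sterol synthesis, SREBP pathway and fatty acid synthesis) in 3 wild type (blue) and 3 G9a knockdown arrays (red), with marker shape giving the replicate number and the dotted line the filter at 4. Within most genes the colours overlap, and the widest spreads are those of Elovl6, Scd1, Hsd17b7 and Fdft1.

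**Figure D2:**
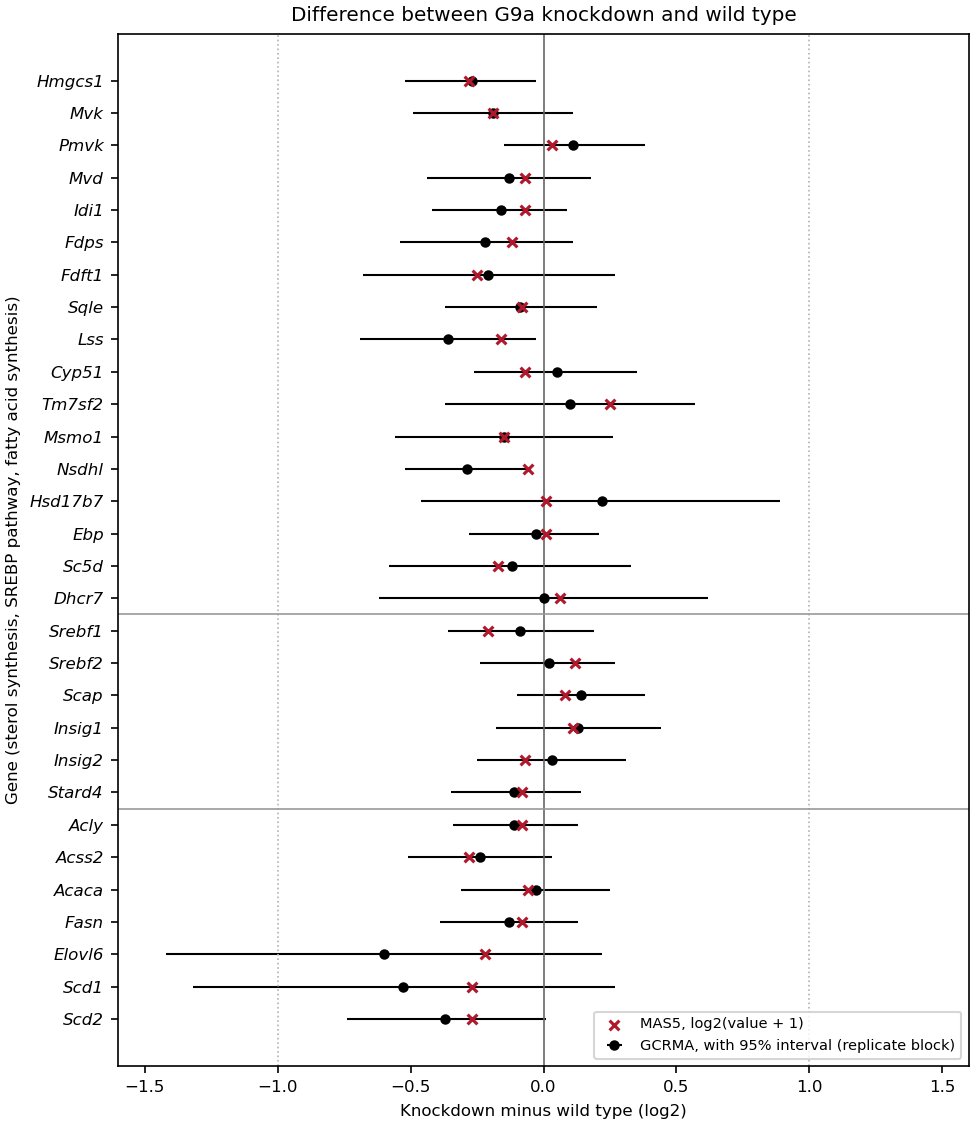
Knockdown minus wild type on the log2 scale for each of 30 genes in GCRMA (black, with the 95% interval from limma with the replicate number as a block) and in MAS5 (red crosses). Dotted lines mark a 2-fold change, and the intervals of Elovl6 and Scd1 pass the lower line.

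In the mevalonate part of the route, Hmgcs1, the HMG-CoA synthase that commits acetyl units to mevalonate, read 10.83, 10.87 and 11.18 in wild type and 10.48, 10.69 and 10.89 in the knockdown. The knockdown array was lower in every pair, while the groups overlapped because knockdown 3 lay above wild type 1 and 2. The difference was -0.27 (95% interval -0.52 to -0.03, limma unadjusted p = 0.0340, adjusted p = 0.335). Without the block its interval was -0.65 to 0.10. All 4 tested Hmgcs1 probe sets were negative, from -0.14 to -0.35, and at 1433445_x_at, where the groups did not overlap, the values were 10.89, 10.84 and 11.11 against 10.48, 10.52 and 10.78. At the dimmest of them, 1433446_at, only pair 1 was lower, with pairs at -0.58, 0.04 and 0.13. Idi1, which interconverts the isoprenoid building blocks, read 10.39, 10.37 and 10.43 in wild type and 10.19, 10.34 and 10.18 in the knockdown. Its groups did not overlap, and the difference was -0.16 (-0.42 to 0.09). At the dimmer Idi1 probe set, 1423804_a_at, the groups overlapped, with pairs at 0.23, -0.44 and -0.29 and a difference of -0.17 (-0.56 to 0.22). The mevalonate kinase gene Mvk differed by -0.19, the phosphomevalonate kinase gene Pmvk by 0.11, the decarboxylase gene Mvd by -0.13 and the farnesyl diphosphate synthase gene Fdps by -0.22, each with an interval that includes 0.

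The enzymes that make squalene and close its rings were also read. Fdft1, the squalene synthase, differed by -0.21 at its brighter probe set, where pair 1 stood at -0.74 and the others at 0.04 and 0.08. At its other probe set, 1448130_at, all 3 pairs were lower (-0.44, -0.23 and -0.12), with a difference of -0.26 (-0.54 to 0.01) that was 0.01 in MAS5. Sqle, the squalene epoxidase that is a control point of the route, differed by -0.09 (-0.37 to 0.20). Lss, the lanosterol synthase, read 8.40, 7.99 and 8.33 in wild type and 7.74, 7.86 and 8.03 in the knockdown at 1420013_s_at. The knockdown was lower in all 3 pairs, and knockdown 3 lay above wild type 2. The difference was -0.36 (-0.69 to -0.03, or 1.28-fold lower, limma unadjusted p = 0.0381, adjusted p = 0.342). It was -0.21 without replicate 1, -0.16 in MAS5 and -0.10 as the mean of the Lss probe sets. The dimmer Lss probe set, 1426913_at, had the opposite sign, with 5.45, 5.59 and 5.69 against 5.62, 5.76 and 5.85 and the knockdown higher in all 3 pairs. Probe sets with _s or _x in their names can read related transcripts as well, and which Lss probe set follows the transcript was not tested.

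After lanosterol, 8 members remove methyl groups and move or add bonds until cholesterol is reached. Nsdhl, a sterol dehydrogenase of the demethylation steps, read 9.20, 8.85 and 8.77 in wild type and 8.90, 8.61 and 8.45 in the knockdown. The 3 pairs differed by -0.30, -0.24 and -0.32, the most even pairs among the 3 genes with low p-values, although knockdown 1 lay above wild type 2 and 3. The difference was -0.29 (-0.52 to -0.05, limma unadjusted p = 0.0254, adjusted p = 0.313), and in MAS5 it was -0.06. Without the block its interval was -0.70 to 0.13. The methyl sterol oxidase gene Msmo1 differed by -0.15, the desaturase gene Sc5d by -0.12, the isomerase gene Ebp by -0.03 and the lanosterol demethylase gene Cyp51 by 0.05. The dimmer tested Sc5d probe set, 1434520_at, had the opposite sign, at 0.35 (-0.34 to 1.04) and 0.33 in MAS5. Dhcr7, the last reductase of the route, differed by 0.00 (-0.62 to 0.62), with pairs at 0.04, 0.63 and -0.66.

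The most dimly read sterol enzymes were Tm7sf2 and Hsd17b7. Tm7sf2, a sterol reductase, read 5.92, 5.65 and 5.68 in wild type and 5.61, 6.26 and 5.69 in the knockdown, with knockdown 2 above all other arrays. Its difference of 0.10 was -0.15 without replicate 2. Hsd17b7, a keto-sterol reductase, read 6.75, 5.46 and 5.98 against 6.41, 6.49 and 5.94 at 1457248_x_at. Its difference of 0.22 (-0.46 to 0.89) was 0.01 in MAS5 and -0.19 without replicate 2. The next Hsd17b7 probe set, 1417871_at, lay below the filter and differed by -0.40. Across the 17 sterol enzymes 12 differences were negative, with a median of -0.13.

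The regulators of the pathway stood closer to 0, with 4 of 6 differences positive and a median of 0.02. Srebf2, which encodes the SREBP that drives sterol genes, read 8.65, 8.52 and 8.74 in wild type and 8.60, 8.68 and 8.68 in the knockdown, a difference of 0.02 (-0.24 to 0.27), and its other probe set differed by 0.01. Srebf1, which encodes the SREBPs that drive fatty acid genes, read 9.19, 8.70 and 8.73 against 9.21, 8.70 and 8.46, a difference of -0.09 (-0.36 to 0.19). Both groups overlapped throughout, and the array with the high Srebf1 value was replicate 1 in each group. Scap, the escort protein of the SREBPs, was the 1 member with the knockdown higher in all 3 pairs, by 0.13, 0.08 and 0.22 (difference 0.14, -0.10 to 0.38).

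Insig1, the retention protein that SREBP itself induces, read 9.58, 10.30 and 9.96 in wild type and 9.88, 10.17 and 10.18 in the knockdown. Its lowest value was in wild type 1, the array in which most sterol enzymes were highest, and the difference was 0.13 (-0.18 to 0.44). Insig2, its relative, read 8.88, 8.91 and 8.59 against 8.75, 8.90 and 8.81, a difference of 0.03 (-0.25 to 0.31). The Insig2 probe sets differed by 0.03, -0.03 and -0.31 in order of brightness, and the sign of the gene's difference turned in MAS5 (-0.07). Stard4, a cholesterol transfer protein, differed by -0.11 at its brightest probe set and by -0.29 and -0.02 at the others.

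The difference was below 0 in all 7 fatty acid synthesis genes (median -0.24), and 0 of the 7 reached an unadjusted p under 0.05 at the representative probe set. Acly, which splits citrate to give acetyl-CoA, read 11.32, 11.05 and 11.14 in wild type and 11.19, 10.98 and 11.02 in the knockdown (difference -0.11, -0.34 to 0.13). Acss2, which makes acetyl-CoA from acetate, read 8.06, 7.80 and 7.95 against 7.69, 7.72 and 7.68, so that all 3 knockdown arrays lay below all 3 wild type arrays. Its difference was -0.24 (-0.51 to 0.03), and at 1422478_a_at it was -0.39 (-0.68 to -0.11, limma adjusted p = 0.279), again with groups that did not overlap. The rate-limiting carboxylase gene Acaca differed by -0.03 (-0.31 to 0.25). Fasn, the fatty acid synthase, read 11.53, 11.16 and 11.42 against 11.35, 11.18 and 11.19 (difference -0.13, -0.39 to 0.13).

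Elovl6 and the desaturase genes had the largest differences of the list, and Elovl6 and Scd1 also the widest spread over the 6 arrays. Elovl6, which elongates saturated fatty acids, is named because its difference was the largest, a choice made after its values were seen. It read 7.47, 6.82 and 7.20 in wild type and 7.29, 6.81 and 5.58 in the knockdown. Knockdown 3 alone was low, and the difference of -0.60 (-1.42 to 0.22) became -0.09 without replicate 3. The dimmer Elovl6 probe set, 1417403_at, read 6.19, 5.71 and 5.71 against 5.67, 5.55 and 4.84, with the groups apart and a difference of -0.52 (-0.91 to -0.12, limma adjusted p = 0.291).

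Scd1 and Scd2 encode stearoyl-CoA desaturases, which make oleate from stearate. Scd2, at the top of the list's scale, read 13.64, 13.65 and 13.51 in wild type and 13.66, 13.05 and 12.99 in the knockdown. Knockdown 2 and 3 lay below every wild type array and knockdown 1 lay above them, giving a difference of -0.37 (-0.74 to 0.01, limma unadjusted p = 0.0562, adjusted p = 0.377) and of -0.56 without replicate 1 or -0.25 without replicate 2. Its probe set 1415823_at differed by -0.41 (-0.66 to -0.16, limma adjusted p = 0.226) and 1415824_at by -0.28.

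Scd1 read 6.58, 6.64 and 6.34 in wild type and 7.01, 5.43 and 5.54 in the knockdown, the same arrangement as Scd2, with knockdown 1 highest and knockdown 2 and 3 below every wild type array. The difference was -0.53 (-1.32 to 0.27), -1.0 without replicate 1 and -0.19 without replicate 2. At the dimmer 1415965_at Scd1 read 5.47, 4.72 and 5.02 against 4.71, 4.43 and 4.07, where the groups did not overlap and the difference was -0.67 (-1.05 to -0.28, limma adjusted p = 0.213, the lowest among all member probe sets). Knockdown values there lie near the filter at 4, so a fold is left out.

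**Figure D3:**
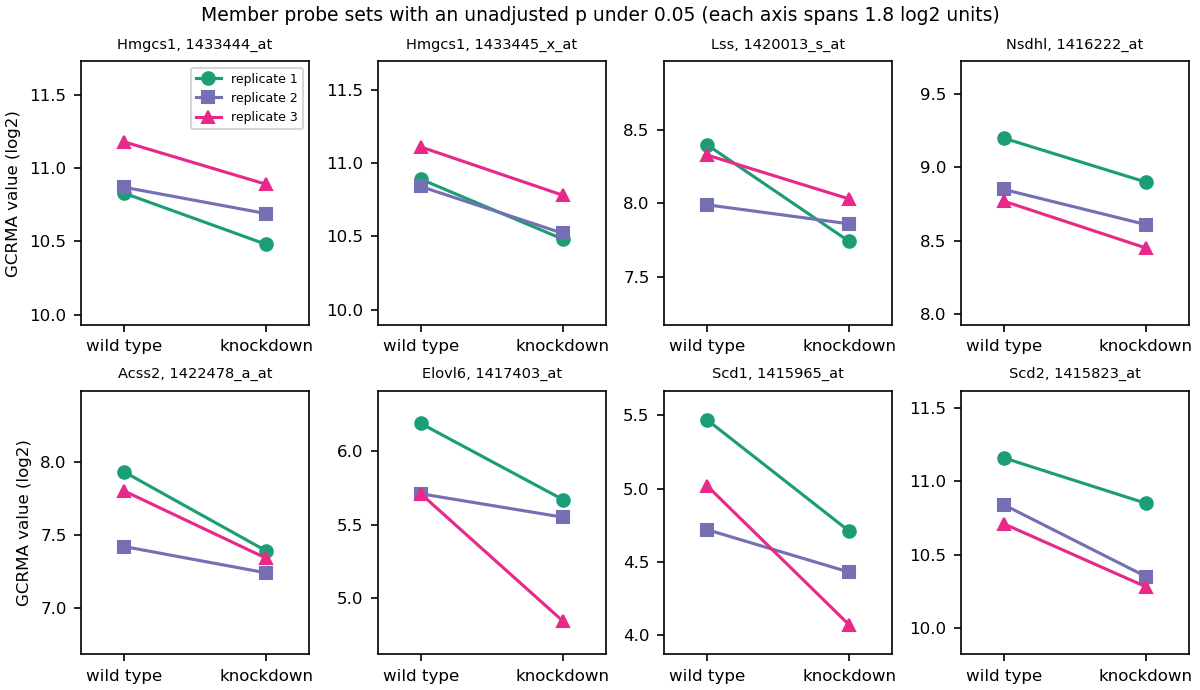
GCRMA log2 values of the 8 member probe sets with an unadjusted p under 0.05, each panel with its own axis of 1.8 log2 units, with lines joining the wild type and knockdown arrays of 1 replicate number. Every line goes down from wild type to knockdown, and at Elovl6 and Scd1 replicate 3 is the steepest line.

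Counted over every probe set, 39 of the 52 tested member probe sets were negative (75.0%, against 51.7% of all tested probe sets). There were 8 with an unadjusted p under 0.05, all lower (15.4%, against 7.24% lower among all tested probe sets), in 7 genes: Hmgcs1, Lss, Nsdhl, Acss2, Elovl6, Scd1 and Scd2. These 8 were selected by p, and probe sets of 1 gene read the same transcript on the same arrays. Of 16 members with more than 1 tested probe set, 13 had the same sign at all of them, 11 negative and 2 positive. The 3 that did not were Lss, Sc5d and Insig2.

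The negative balance lay in different pairs by role. By pair, the sterol enzymes' median difference was -0.34, 0.02 and -0.02, and that of the fatty acid genes was -0.13, -0.07 and -0.27. Wild type 1 held the highest of the 6 values in 16 of 30 members (53.3%, against 31.2% of all genes), and in 10 of the 17 sterol enzymes. In MAS5 it did so in 10 of 30 (33.3%, against 21.6%). Knockdown 3 held the lowest GCRMA value in 11 of 30 (36.7%, against 16.4%). The sterol enzymes' median deviation from the mean of the 6 arrays was 0.34, -0.15 and -0.04 in wild type 1 to 3 and -0.05, -0.13 and -0.10 in the knockdown, so that the 5 arrays other than wild type 1 lay between -0.15 and -0.04. Over all genes these medians were 0.06, -0.02 and -0.02 and then 0.00, -0.01 and -0.01. Without replicate 1 the median over all 30 members was -0.01 with 17 negative, and without wild type 1 alone, in a fit without the block, it was 0.02 with 14 negative.

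Levels of some of these genes also went with the replicate number. In the sterol enzymes the high array was mainly wild type 1, with a median deviation of 0.34 against -0.05 in knockdown 1. Over all 30 members these medians were 0.23 and 0.03, and in MAS5 they were 0.16 and -0.01. The mean of both replicate 1 arrays lay above the mean of the other 4 arrays in 24 of 30 members (80.0%, against 58.5% of all genes), with a median of 0.23 against 0.06 over all genes. A high wild type 1 alone can raise that mean. In 11 of 30 members (36.7%, against 20.7%) both replicate 1 arrays lay above all other arrays, as in Ebp (11.08 and 10.98, against 10.35 to 10.47) and Scap (10.26 and 10.39, against 9.88 to 10.13). The fatty acid genes' medians were 0.24 and 0.19 in the replicate 1 arrays, -0.04 and 0.09 in wild type 2 and 3 and -0.13 and -0.28 in knockdown 2 and 3. What the replicate number stands for is not in the labels, and its part in these differences was not tested beyond the block.

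**Figure D4:**
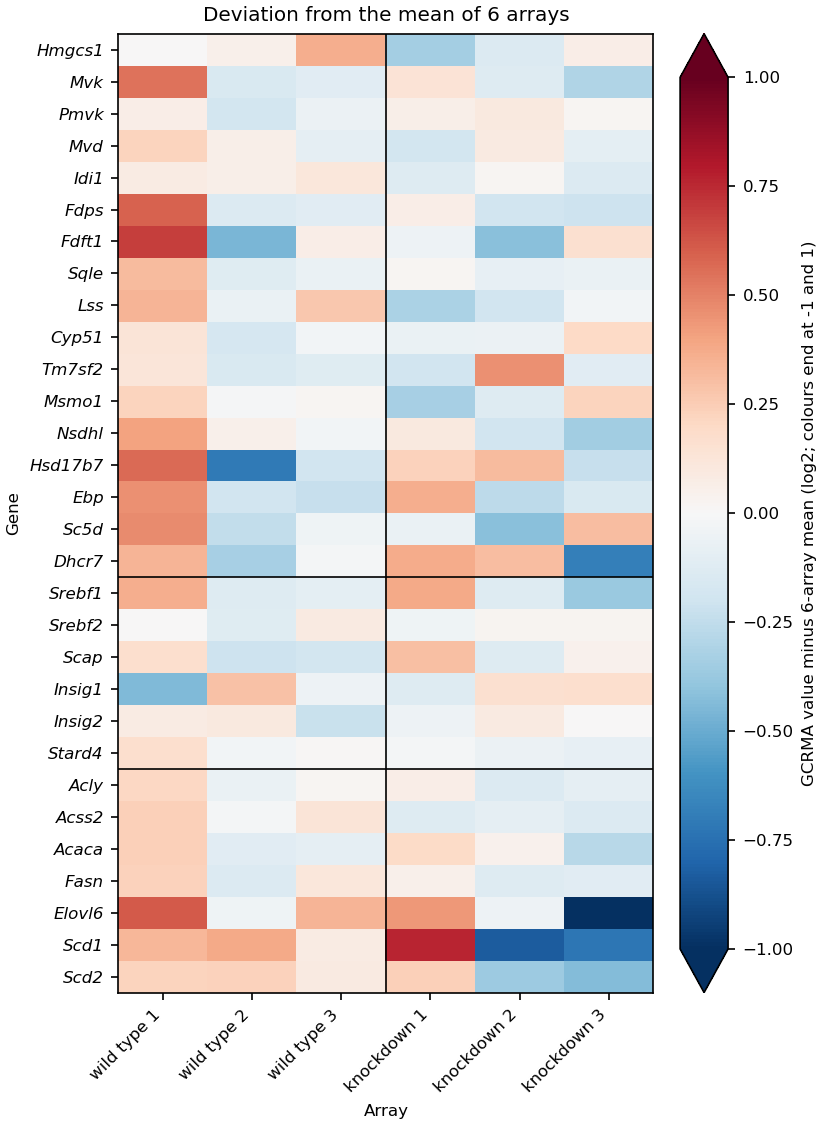
Deviation of each of 30 genes (rows) from its mean over the 6 arrays (columns), in GCRMA log2 units, red above and blue below the mean, with lines between the 3 roles and between the groups. The wild type 1 column is red for most sterol enzymes, Insig1 is blue there, and Scd1, Scd2 and Elovl6 are bluest in knockdown 2 or 3.

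The MAS5 summary of the same arrays, read as log2(value + 1), gave the same sign as GCRMA in 27 of 30 members (90.0%, against 80.7% of all genes). Both summaries share the arrays, so this is no independent support. In MAS5, 22 of 30 differences were negative (73.3%, against 47.6%), with a median of -0.08 against 0.01. Hmgcs1 was the 1 representative probe set with an unadjusted p under 0.05 (3.33%, against 4.95% lower), at -0.28, and 0 passed after adjustment (smallest limma adjusted p = 0.467). The Scd2 probe set 1415823_at differed by -0.42 and the Elovl6 probe set 1417403_at by -0.68 in MAS5 (both limma adjusted p = 0.427). At the representative probe sets several differences were smaller in MAS5, with Elovl6 at -0.22, Scd1 at -0.27, Lss at -0.16 and Nsdhl at -0.06. All 7 fatty acid genes were negative in both summaries.

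Of the other genes of lipid metabolism, 0 passed the adjusted threshold in any list. Sterol uptake, transport, storage and efflux had 14 of 23 listed genes tested, with 8 positive and a median of 0.05. At an unadjusted p under 0.05, 2 were lower (14.3%, against 7.63% of all genes and 10.0% of the members). At that p 1 was higher (against 6.56% of all genes). Abca1, which exports cholesterol from cells, read 10.34, 10.94 and 10.91 in wild type and 10.04, 10.12 and 10.44 in the knockdown. Its difference was -0.53 (-0.86 to -0.20, limma adjusted p = 0.237), and both other probe sets were negative. Abcg4, an ABC transporter of sterols, read 8.23, 8.15 and 7.51 against 8.54, 8.88 and 8.44, a difference of 0.66 (0.29 to 1.02, limma adjusted p = 0.210), with the groups apart, and 0.09 at its dimmer probe set. Tspo, an outer mitochondrial membrane protein, differed by -0.28.

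Fatty acid elongation, desaturation and activation had 23 of 29 tested, 11 negative, a median of 0.03 and 1 lower at that p (4.35%). This was Fads2, the delta-6 desaturase, which read 8.59, 8.46 and 8.47 in wild type and 8.04, 8.28 and 7.88 in the knockdown (difference -0.44, -0.75 to -0.13, limma adjusted p = 0.271), with the groups apart. Acsl3, an acyl-CoA synthetase, differed by 0.25 and Tecr, the last reductase of elongation, by -0.28. Of the proteins that process SREBP or carry out sterol-regulated degradation, 12 of 14 were tested, with 8 negative and a median of -0.03. Ufd1, which works with the ATPase VCP, differed by -0.36 (0.316 as limma adjusted p, and -0.04 at its other probe set), the ubiquitin ligase gene Rnf145 by 0.23 and Vcp by -0.14.

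The isoprenoid branches had 15 of 16 tested, 10 positive, a median of 0.03 and 1 lower at that p (6.67%). This was the methyltransferase gene Icmt at -0.26, beside Dpagt1 at -0.28 and Zmpste24 at 0.14. Glycerolipid synthesis had 20 of 23 tested, 10 in each direction, a median of 0.01, and 1 higher and 1 lower (5.00%) at that p. These were the choline kinase gene Chka at 0.43 (0.14 to 0.72, limma adjusted p = 0.258) and the phosphatidylserine synthase gene Ptdss1 at -0.27, beside Ptdss2 at 0.21. Fatty acid oxidation had 16 of 22 tested, 9 negative, a median of -0.03 and 1 lower at that p (6.25%). This was Hadh at -0.29, beside Echs1 at -0.23 and Acads at 0.17. The medians of these 6 lists lay between -0.03 and 0.05, against -0.01 over all genes and -0.12 in the 30 members.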

How the data were processed

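The 12 deposited columns are 6 arrays, each summarised by the authors with MAS5 and with GCRMA, per the labels. As deposited, MAS5 values are linear intensity (2% trimmed mean 500 on each array) and GCRMA values are log2, spanning 0.69 to 16.49. Tool versions and settings: not given in the sources used here. Gene names came from the platform annotation, and all 30 members matched RefSeq by identifier. After 64 control probe sets were left out, the 17028 of 45101 probe sets with a GCRMA value over 4 in 3 or more arrays were fitted with limma 3.58.1 in R 4.3.3 (group and replicate number, Benjamini-Hochberg over all of them, threshold 0.05). The replicate block followed the rule of the gene list. Arrays were paired by the replicate number in the labels, which do not say what arrays of the same number share. Deviations from group means correlated at 0.72, 0.57 and 0.37 within a number and at -0.59 to 0.17 between numbers. Deviations cancel out within each group, so positive values within a number go with negative values between numbers by construction. MAS5 was tested as log2(value + 1). With 3 arrays a group, their number limits the precision.

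The members and gene lists were chosen with earlier results of these data known. Values in every array are given for members with an unadjusted p under 0.05, groups that did not overlap, the 3 highest and lowest levels, the related pairs (Scd1 and Scd2, Insig1 and Insig2, Srebf1 and Srebf2) and sign conflicts of at least 0.25, and for Elovl6. Up to 3 genes of each other list are named by lowest p, 3 of them in all with array values. Levels of different probe sets are not comparable as amounts of RNA. The fit was tested on data simulated from the same model, with planted differences larger than those of the members. This cannot show that the model suits these arrays or differences of the members' size. Alternatives covered the block, summary, pseudocount, filter, scaling, variance model, choice of probe set and left-out arrays.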

Additional observations from a re-analysis of the deposited data

How the results depend on the processing

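Across 19 alternative settings 0 members passed the adjusted threshold (smallest limma adjusted p 0.195). The unblocked fit (no replicate block) called 1 probe set in place of 2, and the block changed no member's call. At an unadjusted p under 0.05 the unblocked fit had 1 of 30 members lower, Lss, in place of 3. Over all 9025 genes it had 303 lower in place of 689, so the member count fell along with that of all genes. The count of probe sets called was 0 in MAS5 with either pseudocount (1 or 16) and 0 of 45037 with no filter. It was 8 of 13820 with the stricter filter (log2 6), 8 with an intensity trend and 4 with array weights. With the mean of a gene's probe sets, 4 of 9025 genes were called. Members lower at that unadjusted p were 1 in MAS5 with either pseudocount, beside 447 of 9025 genes with pseudocount 1. They were 5 with no filter or with the mean of a gene's probe sets. Members higher were 1 with no filter. The share over all genes was not counted with pseudocount 16, with no filter, with the mean of probe sets or with arrays left out. The member counts there have no background beside them. When arrays were left out, probe sets called ranged from 0 to 1, members lower from 0 to 2, negative differences from 14 to 25 and the median from -0.18 to 0.02, which was -0.01 without replicate 1 and 0.02 without wild type 1. The lowest count of members lower, 0, was reached without replicate 3 in the blocked fit and without wild type 1, wild type 3 or knockdown 2 in the unblocked fit. Other scalings, weights, filters and summaries kept the median between -0.12 and -0.08 and the negative differences between 20 and 22. Of 303 differences of 16 named members under these settings, 16 turned sign, all in the 6 genes given next. Insig2 was at -0.07 in MAS5 with either pseudocount and at -0.10 with the mean of its probe sets. With arrays left out, Insig1 ranged from -0.05 to 0.31, Insig2 from -0.07 to 0.11 (-0.01 without knockdown 2), Srebf1 from -0.30 to 0.08 (0.01 without replicate 3), Srebf2 from -0.05 to 0.07 (-0.04 without wild type 2), Tm7sf2 from -0.15 to 0.31 and Hsd17b7 from -0.19 to 0.56. The cause of these changes was not tested. Elovl6 was added to the named members after its values were seen. With 3 arrays a group, the 95% interval of a member reached a median of 0.29 to either side.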
